A study of Mus musculus with 6 samples.

Results

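Neutrophil granule and mature neutrophil genes were examined in CD8+ T cells kept in culture either alone or together with neutrophil extracellular traps (NETs). The set holds 10 genes, taken by symbol from the 22064 genes of the deposited tables: S100a8, S100a9, Lcn2, Ltf, Camp, Ngp, Elane, Mpo, Retnlg and Cxcr2. Values were present for 9 of them. Retnlg, which encodes resistin-like gamma, was blank in all 6 samples and is missing rather than 0. Of the 9 genes with values, 5 passed the filter on low counts and were tested (S100a8, S100a9, Lcn2, Mpo and Cxcr2), and 4 did not (Ltf, Camp, Ngp and Elane).

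BALB/c mouse spleens were the source of the CD8+ T cells, and both groups were profiled by bulk RNA sequencing. The NET group (3 samples) received NETs at 10 μg/mL for 48 h, and the control group (3 samples) was cultured for the same time without them. The study made this comparison to ask how NETs alter gene expression in CD8+ T cells. Per the study's methods, NETs were rinsed from wells of neutrophils that had been activated overnight with phorbol 12-myristate 13-acetate, cleared by centrifugation and dosed by their DNA content. No sample of NETs without T cells was analysed here, so whether any transcripts came in with the NETs was not tested. A rise below means a higher level in the NET samples, whatever its source. Per the study's methods its BALB/c mice were bought at an age of 6 to 8 weeks. The sources used here do not say whether each sample was a mouse or culture of its own, so every p-value rests on sample-to-sample spread that may be only technical.

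Neutrophils store their antimicrobial proteins in granules that form in order as the cell matures. Azurophil granules form first and carry myeloperoxidase (Mpo) and neutrophil elastase (Elane). Specific granules follow with lactoferrin (Ltf), lipocalin 2 (Lcn2), cathelicidin (Camp) and neutrophilic granule protein (Ngp), and gelatinase granules come last. The calcium-binding proteins S100a8 and S100a9 pair to form calprotectin, the most abundant protein of the neutrophil cytosol, and Cxcr2 is the chemokine receptor that draws mature neutrophils out of the bone marrow. Many of these proteins are carried on NETs, cathelicidin among them. T cells are not a usual source of most of these transcripts.

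Library totals lay between 18696355 and 19425700 estimated counts, so 1 count was worth between 0.0516 and 0.0542 CPM (the count relative to the library total, scaled by the trimmed mean of M values, TMM). The CD8+ T cell markers were present in every sample, with Cd8a between 786 and 877 CPM in the NET samples and between 1125 and 1287 CPM in the control samples. No other gene of the tables had the same 6 values as any of the 9 genes. The first principal component, with 81.1% of the variance, separated NET from control samples, and the second, with 8.29%, set both samples numbered 1 apart.

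Because S100a8, S100a9, Lcn2 and Camp are the genes on which the results turn, the 250 bases before each of their starts are shown, from RefSeq on GRCm38.p6 (the assembly that mm10 names), 5′ to 3′ on the strand of the gene. Capitals mark matches to short motifs searched on both strands.
S100a8, chr3:90668821-90669070, plus strand: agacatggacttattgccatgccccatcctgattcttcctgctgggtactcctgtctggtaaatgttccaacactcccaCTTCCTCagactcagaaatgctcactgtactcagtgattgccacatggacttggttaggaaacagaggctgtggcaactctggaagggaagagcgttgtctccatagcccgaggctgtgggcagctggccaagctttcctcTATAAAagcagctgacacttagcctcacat
S100a9, chr3:90695722-90695971, minus strand: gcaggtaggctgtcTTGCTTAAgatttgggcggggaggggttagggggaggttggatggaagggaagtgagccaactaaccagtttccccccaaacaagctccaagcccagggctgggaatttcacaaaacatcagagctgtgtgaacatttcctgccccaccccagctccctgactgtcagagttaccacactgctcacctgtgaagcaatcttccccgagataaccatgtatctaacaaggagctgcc
Lcn2, chr2:32387740-32387989, minus strand: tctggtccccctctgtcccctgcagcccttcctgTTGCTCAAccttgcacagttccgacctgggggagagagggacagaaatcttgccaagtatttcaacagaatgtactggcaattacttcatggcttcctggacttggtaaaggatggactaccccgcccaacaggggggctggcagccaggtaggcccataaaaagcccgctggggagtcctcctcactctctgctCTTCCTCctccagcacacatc
Camp, chr9:109849457-109849706, minus strand: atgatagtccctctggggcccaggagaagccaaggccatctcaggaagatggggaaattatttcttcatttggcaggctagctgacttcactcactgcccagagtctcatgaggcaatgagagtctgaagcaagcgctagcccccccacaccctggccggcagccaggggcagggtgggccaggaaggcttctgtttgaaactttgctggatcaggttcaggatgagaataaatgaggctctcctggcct
The motifs were those of C/EBP factors (TTNCGNAA and TTGCNNAA, of which a single site can match both), PU.1 (GAGGAAG), AP-1 (TGANTCA) and the TATA box (TATAAA). C/EBP factors and PU.1 are regulators of granulocyte development. Of 27025 mouse promoter windows that ran from 250 bases before to 50 bases after the start, 2.46% and 10.75% held the C/EBP forms, 13.54% the PU.1 form, 7.93% the AP-1 form and 14.16% the TATA box. With positions counted from the start, the S100a8 window held a PU.1 form at -171 and a TATA box at -30. The S100a9 window held a C/EBP form at -236 and TATAAA at position 1, inside the transcribed stretch that is not shown. The Lcn2 window held a C/EBP form at -216 and a PU.1 form at -21. None of these letters was found in the Camp window. Such forms were not particular to these genes, as windows of the set that are not shown held them too. A C/EBP form was found for Ltf at -75, for Ngp at -138 and -11 and for Retnlg at -246. A PU.1 form was found for Elane at -85 and for Mpo at -247 and -224. These matches describe the sequence and are not binding data.

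The S100 pair and Lcn2 rose most. At an edgeR adjusted p below 0.05, 4 of the 5 tested genes were higher with NETs (S100a8, S100a9, Lcn2 and Mpo), 0 were lower and Cxcr2 did not pass. Over all 12546 genes tested, 44.6% passed in either direction, 22.3% higher and 22.3% lower. For 4 of the 5 genes the NET and control values had no overlap, with the NET samples above in each, against 54.7% of all tested genes without overlap and 27.4% with the NET samples above. S100a8, S100a9 and Lcn2 passed the filter on low counts through their NET samples alone, so these counts describe the 5 genes and not the set of 10.

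S100a8 (NCBI gene 20201; mm10, chromosome 3, 90669071 to 90670034, plus strand) was at 3.81, 4.81 and 4.26 CPM in NET samples 1 to 3 and at 0.156, 0 and 0.214 CPM in control samples 1 to 3. All NET samples were thus high and all control samples near 0, with no overlap. The libraries held 74, 93 and 81 counts with NETs against 3, 0 and 4 without. S100a8 rose from 0.123 ± 0.110 to 4.29 ± 0.50 CPM (SD, n = 3). Its log2 fold change was 5.04 ± 0.42 (SE), with an edgeR adjusted p of 9.11e-06. The ratio of its summed counts, scaled to library totals, was 35.1, with an exact binomial 95% interval of 16.8 to 88.1 that covers counting error only. Without control sample 3 the log2 fold change was 5.65, and without control sample 2 it was 4.49.

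S100a9 (NCBI gene 20202; mm10, chromosome 3, 90692630 to 90695721, minus strand) lies 22596 bp from S100a8. Its NET samples had 2.42, 2.48 and 3.73 CPM and its control samples 0.156, 0.0542 and 0.107 CPM. The groups did not overlap. NET sample 3 was the highest for S100a9, while S100a8 was highest in NET sample 2. S100a9 rose from 0.106 ± 0.051 to 2.88 ± 0.74 CPM, a difference of 4.67 ± 0.40 (SE) on the log2 scale (edgeR adjusted p = 1.09e-05). The ratio of summed counts was 27.4 (exact binomial 95% interval 12.3 to 75.7).

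Lcn2 (NCBI gene 16819; mm10, chromosome 2, 32384637 to 32387739, minus strand) encodes a siderophore-binding protein that withholds iron from bacteria, and many cell types other than neutrophils can make it under inflammatory signals. Its NET samples had 2.58, 9.87 and 16.6 CPM and its control samples 0.156, 0.488 and 0.0534 CPM. The NET samples spread widely, with NET sample 1 well below the other 2, yet each lay above every control sample. Lcn2 rose from 0.232 ± 0.227 to 9.68 ± 7.01 CPM. The log2 fold change of 5.35 ± 0.80 (SE) had an edgeR adjusted p of 4.35e-04. Its size depended on single libraries, with a log2 fold change of 6.43 without control sample 2 and 4.72 without NET sample 3, and it passed the threshold in both fits. The ratio of summed counts was 42.4 (exact binomial 95% interval 24.6 to 80.1).

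**Figure D1:**
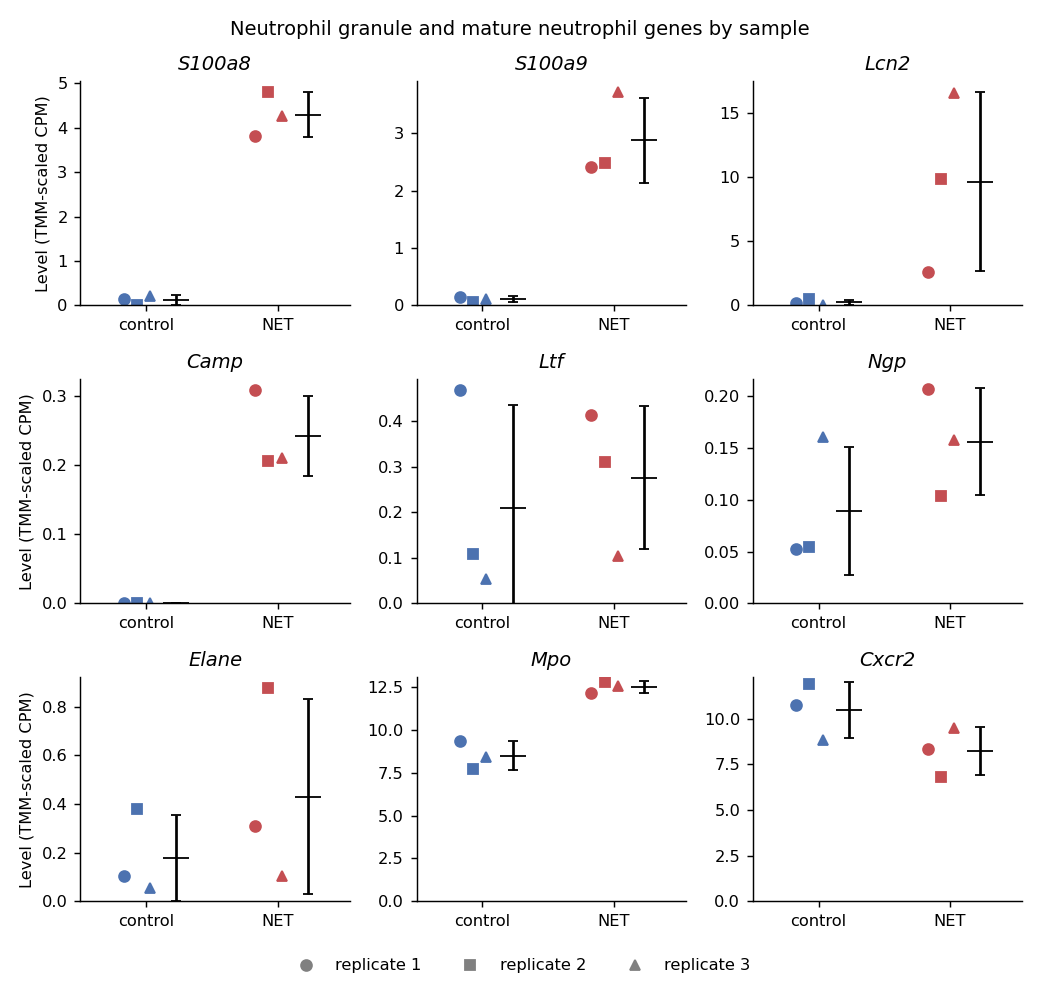
Levels of the 9 genes with values, in TMM-scaled CPM on an axis of its own for each gene, with a point for each of the 3 control and 3 NET samples, the mean as a horizontal line and the SD as an error bar drawn no lower than 0. The NET points lie above all control points for S100a8, S100a9, Lcn2, Camp and Mpo, and the groups overlap for Ltf, Ngp, Elane and Cxcr2.

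Compared per transcript length, the 3 genes did not keep a fixed ratio. In FPKM (fragments scaled to transcript length and library size), S100a8 stood at 11.21, 13.89 and 12.47 in NET samples 1 to 3, S100a9 at 5.15, 5.18 and 7.91, and Lcn2 at 3.22, 12.17 and 20.75. The FPKM ratio of S100a8 to S100a9 was 2.18, 2.68 and 1.58 in these samples, whereas that of Lcn2 to S100a8 was 0.287, 0.876 and 1.66. Lcn2 thus went from the lowest of the 3 in NET sample 1 to the highest in NET sample 3, while S100a8 exceeded S100a9 in all 3 NET samples. In the control samples these genes were at 0.61 FPKM or less.

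**Figure D2:**
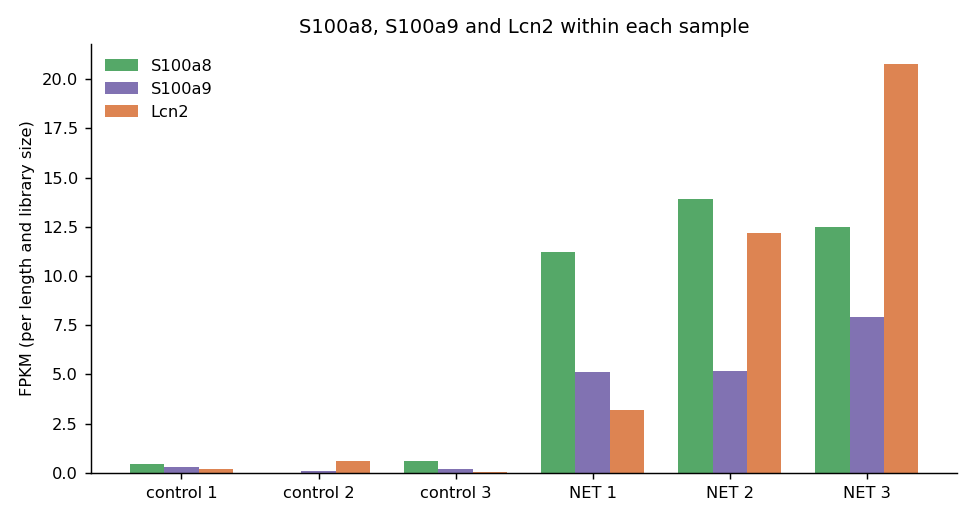
FPKM of S100a8, S100a9 and Lcn2 in each of the 6 samples, drawn as bars from 0, with no error bar since each bar is a single sample. The S100a8 bars are of similar height in the 3 NET samples (11.21 to 13.89), while the Lcn2 bars range from 3.22 to 20.75.

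The other specific granule genes were close to the detection limit. Camp (NCBI gene 12796; mm10, chromosome 9, 109847377 to 109849456, minus strand) encodes the precursor of the mouse cathelicidin peptide Cramp. Its NET libraries held 6, 4 and 4 counts and its control libraries 0, 0 and 0. Every NET sample lay above every control sample, at levels of a few counts. Against a floor of 3 counts in each control library, Camp was at least 1.54-fold higher. An exact two-sided permutation test of the CPM gave p = 0.1, the smallest value that 3 against 3 samples allow. The filter removed Camp from the edgeR fit. With no filter the edgeR log2 fold change was 5.24 (adjusted p = 0.00832), which depends on the prior count since the control libraries were at 0, and DESeq2 also called the gene (adjusted p = 0.0194).

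Ltf (NCBI gene 17002; mm10, chromosome 9, 111019292 to 111042766), which encodes an iron-binding protein, had 8, 6 and 2 counts in the NET libraries and 9, 2 and 1 in the control libraries. The groups overlapped fully, with a ratio of summed counts of 1.32 (exact binomial 95% interval 0.586 to 3.06) and an exact two-sided permutation p of 0.9. Ngp (NCBI gene 18054; mm10, chromosome 9, 110419808 to 110423012), a relative of the cathelicidins, had 4, 2 and 3 counts with NETs and 1, 1 and 3 without. Both group means were at or under 3 counts per library, so no fold is given, and the exact two-sided permutation p was 0.3. A difference in either gene was not detectable at this depth.

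Of the azurophil granule genes, Mpo was far above the detection limit in both groups and Elane was not. Mpo (NCBI gene 17523; mm10, chromosome 11, 87793784 to 87804412) encodes the heme enzyme that makes hypochlorous acid. Its NET samples had 12.1, 12.8 and 12.6 CPM and its control samples 9.36, 7.70 and 8.38 CPM. The NET values were tightly grouped and lay above all control values. Mpo rose from 8.48 ± 0.84 to 12.5 ± 0.3 CPM, or 1.47-fold, with a log2 fold change of 0.56 ± 0.13 (SE) at an edgeR adjusted p of 0.00527. The nearest gene, Lpo, which encodes a related peroxidase, is 2016 bp away and had 0.327 and 0.192 CPM in the NET and control groups. On the other side Tspoap1, 7856 bp away, was also higher with NETs, at 26.1 against 12.0 CPM (log2 fold change 1.12; edgeR adjusted p = 0.00162).

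Elane (NCBI gene 50701; mm10, chromosome 10, 79886312 to 79888216) encodes the serine protease neutrophil elastase. It had 6, 17 and 2 counts in the NET libraries and 2, 7 and 1 in the control libraries. In each group the sample numbered 2 was the highest and the groups overlapped. The ratio of summed counts was 2.47 (exact binomial 95% interval 1.15 to 5.77), an interval that leaves out the spread between samples, and the exact two-sided permutation p was 0.5.

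Cxcr2 (NCBI gene 12765; mm10, chromosome 1, 74153994 to 74161246) was the only tested gene of the set with a lower mean in the NET samples. It was at 8.35, 6.82 and 9.46 CPM in the NET samples and at 10.7, 11.9 and 8.81 CPM in the control samples. NET sample 3 exceeded control sample 3, so the groups overlapped. The means were 8.21 ± 1.32 and 10.5 ± 1.6 CPM (SD, n = 3), a log2 difference of -0.35 ± 0.17 (SE) that did not pass (edgeR adjusted p = 0.113). Its closest relative Cxcr1 had 0.278 and 0.071 CPM in the NET and control groups.

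By mean FPKM the order in the NET samples was S100a8 (12.5), Lcn2 (12.0), S100a9 (6.08), Mpo (5.00), Cxcr2 (2.77), Elane (0.493), Camp (0.440), Ngp (0.140) and Ltf (0.10). The Lcn2 range of 3.22 to 20.75 FPKM spanned those of S100a8, S100a9 and Mpo, so its place is not fixed. Elane, at 0.12 to 1 FPKM, overlapped Camp, Ngp and Ltf, and Ngp (0.09 to 0.19) overlapped Ltf (0.04 to 0.15). At these few counts per library the places of Elane, Ngp and Ltf are not fixed either. S100a9, at 5.15 to 7.91, did not overlap Mpo, at 4.89 to 5.07. In the control samples Cxcr2 (3.49) and Mpo (3.36) led in mean FPKM and overlapped, followed by S100a8 (0.357), Lcn2 (0.287), S100a9 (0.213) and Elane (0.203), whose ranges overlapped at a few counts per library, so that these 4 have no order among themselves. The control samples thus held transcripts of Mpo and Cxcr2 with few of the S100 pair, and the NET samples held all 4 along with Lcn2. Which cells of these bulk samples held them was not tested.

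Further genes of the same roles, in lists chosen with earlier results of these data known, were read from the same fit, in which the median log2 fold change of all tested genes was -0.01. Of all genes tested in that fit, 22.3% were higher with NETs and 22.3% lower. Some genes of these lists also passed the filter on low counts through their NET samples alone. The counts and medians of the lists therefore describe the genes tested and not the full lists. Of 10 azurophil granule genes beside Mpo and Elane, 8 were tested, 5 rose and 1 fell, with a median log2 fold change of 0.65. Prss57, which the filter removed, had means of 0.330 and 0.620 CPM in the NET and control groups. The defining proteases were not among those that rose. Ctsg, which encodes cathepsin G, had 3.91 and 3.35 CPM in the NET and control groups (edgeR adjusted p = 0.325), and Prtn3, which encodes proteinase 3 and lies 3138 bp from Elane, had 0.518 and 0.319 CPM (edgeR adjusted p = 0.456). The genes that rose have uses in many cell types. Serpinb1a, an inhibitor of neutrophil proteases, rose from 4.27 to 17.4 CPM, a difference of 2.03 ± 0.19 (SE) on the log2 scale. Srgn, a granule proteoglycan gene, rose from 305 to 465 CPM and Cd63, a tetraspanin gene, from 7.96 to 14.7 CPM. Ctsc, whose protease activates granzymes as well as neutrophil proteases, fell from 128 to 103 CPM (edgeR adjusted p = 0.0371), a call lost when any single library other than control sample 1 was left out (adjusted p of 0.0624 to 0.153).

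Of 18 specific and gelatinase granule genes, 12 were tested, 7 rose and 1 fell, with a median log2 fold change of 1.31. Of the 7, Mmp9 and Hp passed the filter on low counts through their NET samples alone. The gelatinase Mmp9 stood apart at 978, 748 and 865 CPM in the NET samples against 0.312, 0.217 and 0.160 CPM in the control samples. The neutrophil collagenase gene Mmp8 was at 5.83, 7.39 and 13.5 CPM against 0.676, 0.596 and 0.641 CPM, which gave 3.79 ± 0.36 (SE) on the log2 scale at an edgeR adjusted p of 2.31e-05. Mmp8, like Lcn2, was highest in NET sample 3 and lowest in NET sample 1. The metalloprotease gene Adam8 (log2 fold change 3.04 ± 0.12) and the leukotriene B4 receptor gene Ltb4r1 (2.92 ± 0.16) also rose. Pglyrp1, a peptidoglycan-binding protein gene of specific granules, went the other way, from 8.86 ± 1.31 to 1.97 ± 0.16 CPM (log2 fold change -2.16 ± 0.18). Chil3, Olfm4 and Cd177, which are defining genes of mouse neutrophil granules, had a mean below 0.1 CPM in both groups. The other genes of this list that rose were Hp (0.159 to 1.07 CPM), Cybb (25.3 to 56.8 CPM) and Slc11a1 (3.14 to 8.67 CPM), while 4 tested genes did not pass.

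Of 24 surface and secreted genes of mature neutrophils, 17 were tested, 13 rose and 0 fell, with a median log2 fold change of 1.26. Of the 13, Wfdc21 and Fpr1 passed the filter on low counts through their NET samples alone. G0s2, which the filter removed, had means of 0.312 and 0.988 CPM in the NET and control groups. Ly6g, which encodes the surface antigen by which mouse neutrophils are identified, was blank in all samples. Csf3r, the receptor for granulocyte colony-stimulating factor, was at 3.76, 4.19 and 6.41 CPM in the NET samples and 2.29, 1.36 and 2.19 CPM in the control samples, and passed at 1.29 ± 0.27 (SE) on the log2 scale (edgeR adjusted p = 0.0033). Padi4, whose enzyme citrullinates histones when NETs form, had 1.14 and 0.939 CPM in the NET and control groups and did not pass (edgeR adjusted p = 0.397). Wfdc21, which encodes a small secreted protein, held 92 counts in the NET libraries and 1 in the control libraries, a ratio of 91.0 with an exact binomial 95% interval of 15.9 to 3634. Its log2 fold change was 6.04 with all samples and 7.94 without control sample 3, which held the single control count. The decoy interleukin 1 receptor gene Il1r2 rose from 1.49 to 8.64 CPM and the C-type lectin gene Clec4d from 2.51 to 12.5 CPM.

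Of 10 transcription factors of granulocyte development, 8 were tested, 2 rose and 3 fell, with a median log2 fold change of 0.20. Spi1, which encodes PU.1, was at 8.35, 5.27 and 7.46 CPM with NETs and 2.39, 1.19 and 1.39 CPM without (log2 fold change 2.08 ± 0.27). Cebpa, the factor that starts the granulocyte program, rose from 1.34 to 2.98 CPM (edgeR adjusted p = 0.0229, and 0.0828 without NET sample 3). Cebpe, which drives the specific granule genes, had 0.276 and 0.125 CPM in the NET and control groups and was not tested. Myb fell from 161 to 50.3 CPM and Gata1 from 11.3 to 5.21 CPM. Gfi1, a repressor used in both T cell and neutrophil development, had 48.2 and 39.0 CPM in the control and NET groups, with a call (edgeR adjusted p = 0.0345) that was lost without NET sample 2, NET sample 3, control sample 1 or control sample 2 (0.0577 to 0.147).

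**Figure D3:**
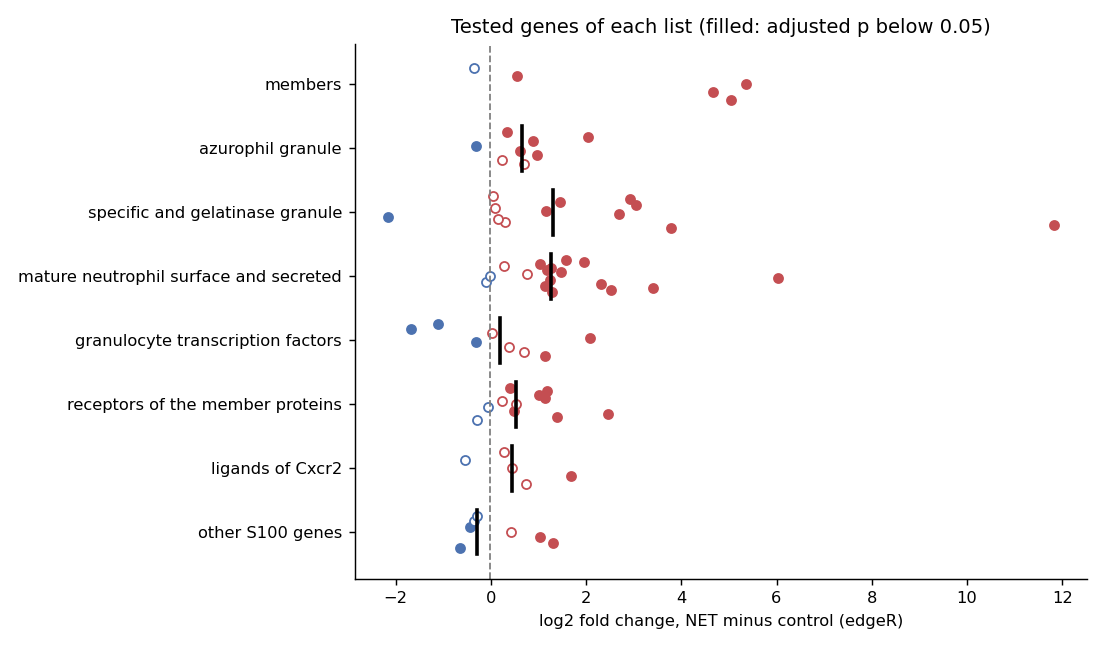
Log2 fold change (NET minus control, edgeR) of each tested gene in the set and in 7 lists by role, with filled points for an adjusted p below 0.05, red for values above 0, blue for values below 0, a black bar for the median of each of the 7 lists and a dashed line for the median of all tested genes. The 3 points of S100a8, S100a9 and Lcn2 lie between 4.67 and 5.35, and the medians of the 7 lists lie between -0.28 and 1.31.

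Receptors that bind the encoded proteins were also measured. Of 11 tested, 7 were higher with NETs and 0 were lower, with a median log2 fold change of 0.53. Over all tested genes the shares were 22.3% higher and 22.3% lower. Of the 7, Fpr2 and Itgam were also counted among the mature neutrophil genes above. Tlr4, a receptor of calprotectin, rose from 5.66 to 14.8 CPM, and the scavenger receptor gene Cd36, whose protein binds calprotectin, from 2.27 to 12.4 CPM. P2rx7, an ATP receptor linked to the action of human cathelicidin, rose from 26.8 to 53.8 CPM, and the integrin gene Itgam from 9.03 to 20.4 CPM. Of 5 tested ligands of Cxcr2, only Cxcl2 passed. It was at 1.80, 3.20 and 6.73 CPM with NETs and 1.72, 0.759 and 1.12 CPM without (log2 fold change 1.69 ± 0.47; edgeR adjusted p = 0.0147), with 1.06 and an adjusted p of 0.0582 without NET sample 3.

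The rise of S100a8 and S100a9 was not shared by the S100 family as a whole. Of 7 other tested S100 genes, 2 rose and 2 fell, with a median log2 fold change of -0.28. S100a4 rose from 9.48 to 19.5 CPM and S100a3 from 0.514 to 1.28 CPM. S100a10 fell from 272 to 202 CPM (edgeR adjusted p = 0.0289, and 0.0551 to 0.141 without NET sample 2 or 3 or control sample 2 or 3) and S100a1 from 3.73 to 2.37 CPM (edgeR adjusted p = 0.0217, and 0.0705 to 0.0803 without NET sample 1 or control sample 2 or 3). Of these 4 genes, S100a4, S100a3 and S100a1 lie in the same gene cluster on chromosome 3 as the calprotectin pair.

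Markers of other cells moved as well, and their part in the changes above was not tested. In bulk samples, fewer cells of a type and less RNA per cell cannot be told apart. Over all tested genes, 22.3% rose and 22.3% fell. The 12 neutrophil markers are the 10 genes described here with Csf3r and Ly6g, so they largely repeat the results above. Of these, 6 were tested and 5 rose, but S100a8, S100a9 and Lcn2 passed the filter through their NET samples alone. The summed level of the list was 34.3 to 53.6 CPM with NETs and 20.0 to 23.5 CPM without. All 7 B cell markers rose (summed level 125 to 203 against 29.8 to 37.4 CPM), with Cd22 the most abundant in the NET samples and Cd79b in the control samples, and all 6 tested CD8+ T cell markers fell (1777 to 1994 against 2588 to 2999 CPM). Of 7 tested markers of monocytes and macrophages, 4 rose and 0 fell (346 to 398 against 247 to 304 CPM). The 4 were Ccr2 (24.1 to 60.9 CPM), Cd68 (9.38 to 18.67 CPM), Cd14 (2.14 to 5.40 CPM) and Adgre1 (1.55 to 3.99 CPM). Ly6c2, which CD8+ T cells also express, was the most abundant of the list and did not pass, and C1qa, C1qb and C1qc were at or below 0.104 CPM on average. The mast cell and basophil list had 2 genes higher and 2 lower of 7 tested (91.7 to 106 against 184 to 212 CPM, mostly Kit), with the basophil protease gene Mcpt8 at 12.8 and 10.7 CPM in the NET and control groups. Dendritic cell markers summed to 113 to 124 against 245 to 267 CPM, mostly Ccr7, which T cells also express, with 2 of 5 tested higher and 2 lower. Of 3 CD4+ T cell markers 1 rose and 2 fell (56.1 to 68.7 against 69.3 to 73.8 CPM). Eosinophil and NK cell markers overlapped between the groups in their summed level (6.55 to 9.87 against 2.62 to 9.38 CPM, and 81.3 to 108 against 94.5 to 117 CPM), as did erythroid and platelet markers (1.03 to 1.86 against 0.694 to 1.14 CPM, and 19.3 to 29.6 against 19.35 to 21.5 CPM). Of 3 tested platelet markers, Pf4 rose from 5.40 to 8.93 CPM (edgeR adjusted p = 0.0125) and 2 did not pass. None of the tested eosinophil, NK cell or erythroid markers passed.

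**Figure D4:**
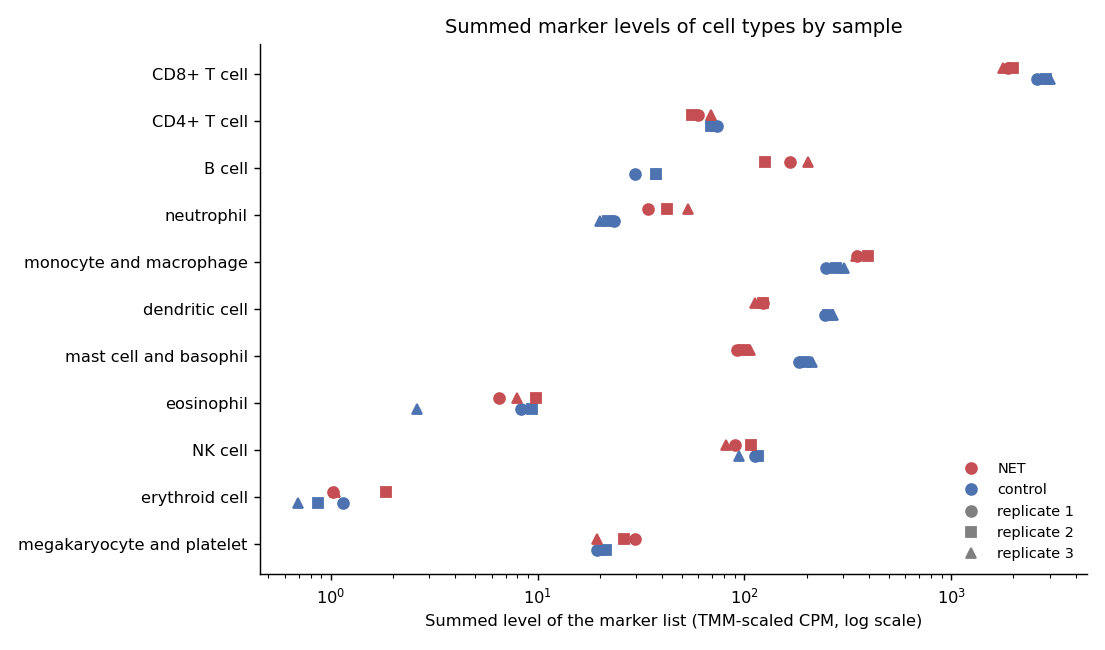
Summed TMM-scaled CPM of the marker genes of 11 cell types in each sample, on a log axis, with red for NET, blue for control and a symbol for each replicate number. The neutrophil sums, from a list that includes the 10 genes of the set, are 34.3 to 53.6 with NETs and 20.0 to 23.5 without. The largest gap is that of the B cell markers.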

How the data were processed

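Transcript levels were measured by poly(A), strand-marked, paired-end RNA sequencing. The authors deposited estimated counts per gene, unscaled, and FPKM values, which they scaled for transcript length and library size. The submitters' processing notes name the build mm10. None of the sources used here names the aligner, the counting program or the annotation, or says whether strand was used. Of 22064 genes listed, 6459 were blank in every sample and treated as missing, and 99.7% matched RefSeq on GRCm38.p6.

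Estimated counts were rounded, filtered with filterByExpr and compared between 3 NET and 3 control samples with the edgeR 4.0.16 quasi-likelihood F test in R 4.3.3 (TMM scaling, group only, two-sided, Benjamini-Hochberg adjustment over 12546 genes, threshold 0.05). Standard errors came from the F statistic. The fit was tested on simulated counts. Pairs of replicates differed by 3.05 to 27.0 in chi-square per degree of freedom, more than sampling noise alone.

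The genes and lists were chosen with earlier results of these data known. All 10 genes are named. Of each list, up to 4 genes with the smallest adjusted p in each direction are named, as are genes against the direction of the rest, Mmp9, Ly6g, Padi4 and Csf3r, and the most abundant or absent markers. Ctsg, Prtn3, Chil3, Olfm4, Cd177, Hp, Cybb, Slc11a1, Cebpe, Cxcr1, the neighbouring genes, Cd8a, Cd79b, Ccr2, Cd68, Cd14, Adgre1, C1qa to C1qc and Mcpt8 were named outside these criteria, with their values already seen. So were Prss57, Fpr1, Fpr2, G0s2 and Pf4. A few genes that meet the criteria enter the list counts and are not reported here by name.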

Additional observations from a re-analysis of the deposited data

How the results depend on the processing

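The count of the 10 genes that were called was 4 with edgeR as described. It stayed at 4 with relative log expression, upper quartile and total scaling, with a filter of at least 10 counts in 3 samples, with limma 3.58.1 on log2(FPKM + 1) and log2(FPKM + 0.1), without both samples numbered 1 and without each replicate in turn, and was 5 with no filter, with DESeq2 1.42.0 and with limma on log2(FPKM + 1) with no filter, where Camp was added (log2 fold changes 5.24, 4.63 and 0.52). All 85 values of the 5 tested genes under 17 alternatives kept their direction and side of the threshold. The log2 fold change was 3.34 to 5.65 for S100a8, 2.53 to 5.15 for S100a9, 3.07 to 6.43 for Lcn2, 0.46 to 0.65 for Mpo and -0.46 to -0.22 for Cxcr2, with the lowest values of the first 3 on the log2(FPKM + 1) scale, which understates changes of low genes. Of 510 values of 30 other named genes, 481 kept their call, 29 lost it and 0 reversed. The lost calls were those of Ctsc, Cebpa, Gfi1, Cxcl2, S100a1 and S100a10. Genes called over the whole table numbered 5590 with all samples and 4339 to 5794 without 1 replicate.

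Replicate numbers are shared between the groups, but nothing says that they mark a common source. Deviations of same-numbered samples correlated at 0.433, 0.138 and 0.0447, and not every sample correlated best with its own number. With the replicate number as a block, 7018 genes and 4 of the 10 genes were called. Depth limits Ltf, Camp, Ngp and Elane, which held at most 17 counts in any library.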
